A study of Rattus norvegicus with 24 samples.

Results

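Cpa1, the gene of pancreatic carboxypeptidase A1, was examined in rat liver beside 6 other genes of digestive enzymes, Cpb1, Cel, Pnlip, Prss1, Ctrb1 and Cela1. These 7 genes were taken from the 16856 genes named by a probe set with 1 gene symbol, and each had 1 probe set. The group was selected on measured values, because Cpa1 had stood out in the same arrays for its lower signal under the females' own high-fat diet, and the other genes were added to see whether they moved with it. The own-diet difference of Cpa1 is therefore given as a description, without a test, and so are its values that share that contrast.

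The livers came from 24 adult F2 Sprague-Dawley females, hybridised singly to a whole-transcript array from 200 ng of total RNA. Their F0 grandfathers were fed chow (the chow line) or a high-fat diet (HFD; the HFD line). For 12 weeks the females were given either chow or an HFD with 42/45% of its energy from fat. The group names give the grandfather's diet and then the female's own diet: GpatCD-CD, chow line on chow (n = 7), GpatCD-HF, chow line on the HFD (n = 6), GpatHF-CD, HFD line on chow (n = 6), and GpatHF-HF, HFD line on the HFD (n = 5). No group carried a gene deletion or a drug by the labels, and the labels do not say which females shared a parent or litter, so p-values measure only the spread between these females. One protocol field names gonadal fat as the tissue taken, whereas titles, sources and tissue labels all give liver. The hepatocyte genes Alb, Tf and Ttr had mean signals of 13.49, 13.42 and 13.16 (log2 of intensity + 16), and of the 8 fat tissue markers Adipoq, Lep, Plin1, Retn and Fabp4 lay between 5.78 and 6.29, Cfd had 7.06, Lipe 7.76 and Cidec 10.48.

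Digestive enzymes are made by the acinar cells of the exocrine pancreas, stored as inactive precursors in zymogen granules and released into the gut. Carboxypeptidases A and B remove amino acids from the carboxyl end of peptides, trypsin, chymotrypsin and elastase cut within them, and pancreatic lipase and carboxyl ester lipase split dietary triglycerides and esters. The acinar programme is driven by the PTF1 complex, which binds an E-box together with a TGGGAA-like sequence in the promoters of these genes. Hepatocytes are not known as a main source of these enzymes. Liver does make relatives of them, such as carboxypeptidase N and the clotting-related carboxypeptidase B2 of plasma. The pancreas lies close to the liver, so pancreatic tissue taken along in dissection would bring the acinar transcripts as a group.

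The promoters of Cpa1, Cpb1, Pnlip and Prss1 are shown because these genes behaved differently on the arrays. Cpa1 and Cpb1 varied widely between livers, while Pnlip and Prss1 were too dim to pass the filter on low signals. Each run holds the 250 bases before the transcription start in the RefSeq annotation of GRCr8, 5′ to 3′ on the gene's strand, and capitals mark each E-box (CANNTG) and each TATAAA.

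Cpa1 (chr4:60224551-60224800, plus strand): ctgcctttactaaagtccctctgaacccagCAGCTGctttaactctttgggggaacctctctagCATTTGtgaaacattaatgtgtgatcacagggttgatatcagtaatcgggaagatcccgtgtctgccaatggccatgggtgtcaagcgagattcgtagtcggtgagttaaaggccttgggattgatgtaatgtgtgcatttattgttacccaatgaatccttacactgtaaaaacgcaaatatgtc
Cpb1 (chr2:104714663-104714912, minus strand): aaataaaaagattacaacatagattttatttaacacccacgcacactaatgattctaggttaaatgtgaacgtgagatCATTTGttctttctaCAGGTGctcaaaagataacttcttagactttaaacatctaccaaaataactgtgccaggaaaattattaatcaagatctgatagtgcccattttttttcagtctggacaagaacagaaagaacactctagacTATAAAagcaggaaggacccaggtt
Pnlip (chr1:267784360-267784609, plus strand): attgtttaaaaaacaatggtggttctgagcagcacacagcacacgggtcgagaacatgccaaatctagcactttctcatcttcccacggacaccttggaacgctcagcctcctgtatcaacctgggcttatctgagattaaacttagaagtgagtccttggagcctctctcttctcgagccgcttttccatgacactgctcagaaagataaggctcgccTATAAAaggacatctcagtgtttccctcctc
Prss1 (chr4:71330999-71331248, plus strand): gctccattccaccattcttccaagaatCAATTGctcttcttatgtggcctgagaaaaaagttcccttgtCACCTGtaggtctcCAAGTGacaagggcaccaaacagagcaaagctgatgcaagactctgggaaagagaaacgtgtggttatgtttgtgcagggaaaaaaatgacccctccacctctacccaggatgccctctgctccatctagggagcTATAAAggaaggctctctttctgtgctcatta

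The upstream stretch of Cpa1 held 2 E-boxes, beginning at 220 and 186 bases before the start, and no TATAAA. Cpb1 held 2 E-boxes and a TATAAA that began 25 bases before its start. Pnlip had no E-box and a TATAAA beginning at 31 bases, and Prss1 had 3 E-boxes and a TATAAA beginning at 32 bases. Among the other members, Cela1 held a TATAAA and Cel and Ctrb1 did not, and all 3 held at least 2 E-boxes. TGGGAA was found on either strand in Cel (2 matches), Pnlip, Prss1 and Ctrb1 (1 match each) and in none of Cpa1, Cpb1 and Cela1. Of 33469 rat promoters searched over the same length and both strands, 12.9% held TATAAA, 65.5% held an E-box and 22.1% held TGGGAA, and the matches in the members did not overlap each other. These matches describe the letters only.

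Signal is given as the deposited intensity or as log2(intensity + 16), and a difference is on that log2 scale, which understates the change of a dim probe set. Array medians lay between 97.93 and 127.6. Arrays 21, 22, 24 and 25, of 3 groups, stood apart from the other 20 on the second principal component (13.8% of the variance; scores from 22.08 to 25.07 against -13.69 to 5.85), and values that rest on them are given with and without them. Of the 20917 probe sets, the dimmest 25% were left out and 15687 were tested in limma. A probe set was called at a Benjamini-Hochberg adjusted p under 0.05 over all of these. For own diet (HFD minus chow), 0.319% of probe sets were called in the chow line, 0.752% in the HFD line and 1.99% for the average over both lines. At an unadjusted p under 0.05 these shares were 8.8%, 15.8% and 13.3%. For grandpaternal diet (HFD line minus chow line), 0% were called among chow-fed females, 0% among HFD-fed females and 0% for the average over own diets, and 0% for the interaction of the diets, where limma's unadjusted p was under 0.05 for 1435, 1722, 1728 and 1523 probe sets. For the interaction, 57 probe sets were called without array 28 and 48 without array 22.

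Cpa1 was a bright and very variable transcript in these livers. Its intensity ran from 124 to 8083 over the 24 arrays, with a median of 3495, and 96.2% of all probe sets had a lower mean. Its SD within groups was 0.96 (log2, 20 residual degrees of freedom), larger than that of 99.8% of all probe sets, for which the median was 0.18. In GpatCD-CD the lowest, median and highest Cpa1 intensities were 2066, 5078 and 8083. In GpatCD-HF they were 1251, 3213 and 3944. In GpatHF-CD they were 2438, 3157 and 5145, with the smallest SD of the 4 groups on the log2 scale (0.40). The 5 GpatHF-HF livers gave 463, 1510, 1189, 124 and 3523 (arrays 24, 44, 45, 46 and 47). The 3 brightest livers were all GpatCD-CD, the 2 dimmest were both GpatHF-HF, and every pair of groups overlapped.

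**Figure D1:**
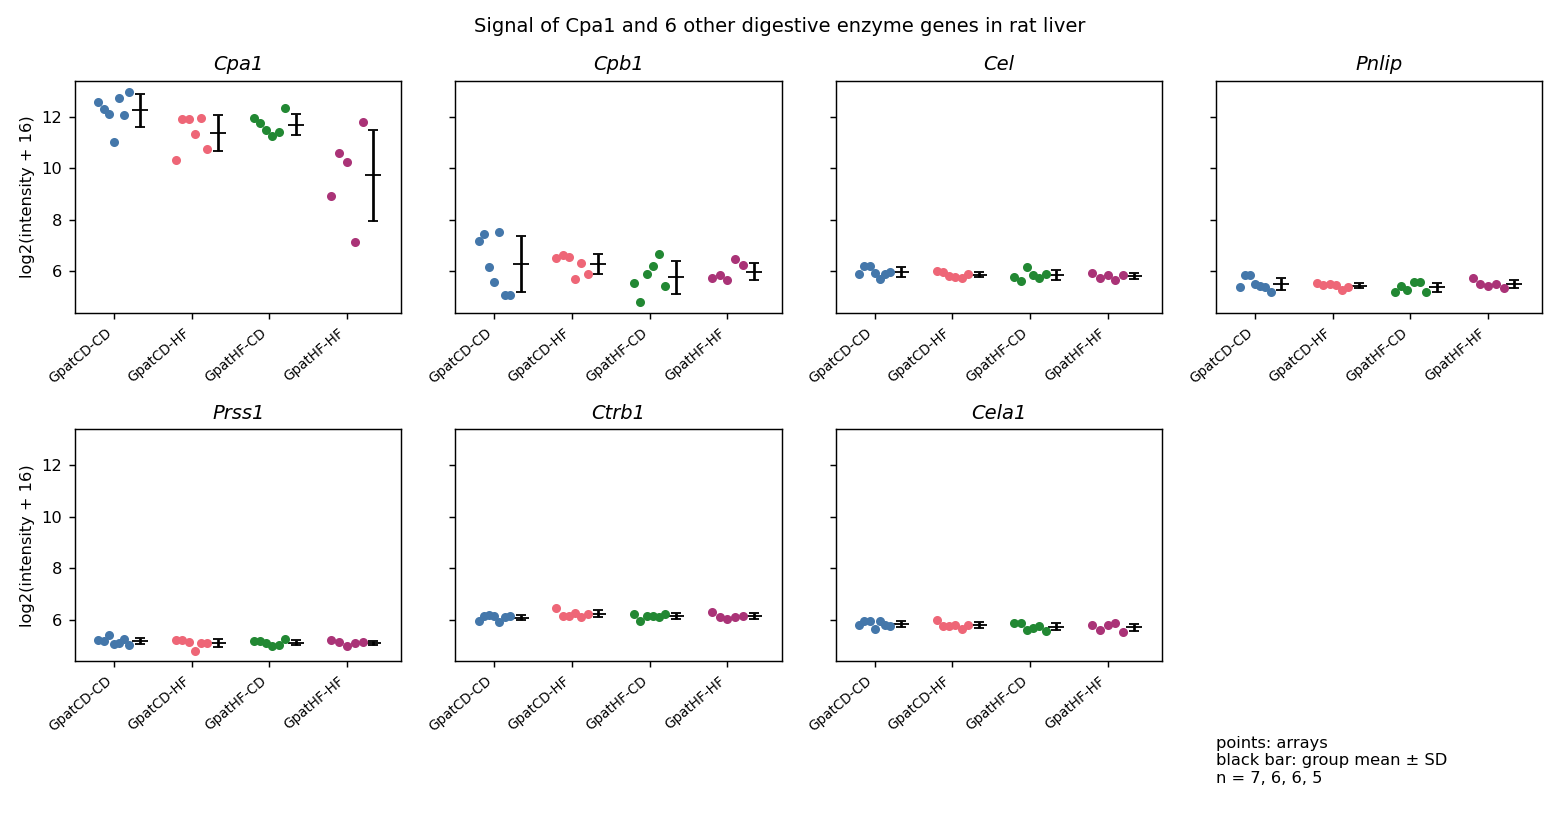
Signal of each of the 7 genes on a shared log2(intensity + 16) axis; each point is 1 array, and the bar beside each group is its mean ± SD (n = 7, 6, 6 and 5 from left to right). Cpa1 lies between 7.13 and 12.98, with its 2 lowest points in GpatHF-HF, Cpb1 scatters within groups, and the remaining 5 genes form flat bands between 4.79 and 6.46.

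Cpa1 was lower in the livers of females on the HFD. The mean log2 signal was 12.26 ± 0.64 (SD, n = 7) in GpatCD-CD and 11.36 ± 0.70 (n = 6) in GpatCD-HF, a difference of -0.90 ± 0.47 (SE), or 1.86-fold lower. In the HFD line, GpatHF-CD had 11.70 ± 0.40 (n = 6) and GpatHF-HF had 9.73 ± 1.78 (n = 5), a difference of -1.97 ± 0.51, or 3.93-fold lower. Averaged over the lines, Cpa1 differed by -1.43 ± 0.35, or 2.70-fold lower. All 6 GpatCD-HF livers lay below the GpatCD-CD median, but only 2 lay below the lowest GpatCD-CD liver. In the HFD line 4 of 5 HFD livers lay below the lowest chow liver, and array 47 was the exception. Over both lines 6 of 11 HFD livers were dimmer than every one of the 13 chow livers.

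The difference in the HFD line leaned on array 46, whose Cpa1 intensity of 124 was the lowest of all. Without it the HFD-line difference was -1.32, and without array 47 it was -2.49. The averaged difference was -1.11 without array 46 and -1.19 without arrays 21, 22, 24 and 25. The median of array 46 over all probe sets was 104.56, and its Cpb1 intensity of 71.7 was the highest of its group. The excess of the own-diet difference in the HFD line over that in the chow line, the interaction, was -1.08 ± 0.69 and shrank to -0.43 without array 46.

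Cpa1 had a lower mean in the HFD line than in the chow line, and the test did not call this difference. Averaged over own diets, the difference was -1.10 ± 0.35, or 2.14-fold lower (95% confidence interval -1.81 to -0.38), with a limma unadjusted p of 0.0039 and a Benjamini-Hochberg adjusted p of 0.320. Over the alternative settings that adjusted p ran from 0.127 to 0.525. On chow, the difference was -0.56 ± 0.47, and 5 of 6 GpatHF-CD livers lay below the GpatCD-CD median while none lay below its lowest value. On the HFD it was -1.64 ± 0.51, which became -0.99 without array 46. The within-diet values are given without a test. The averaged contrast is not the one on which Cpa1 was picked, but it uses the same arrays, so its p is not independent of that choice.

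The other protease genes were not called in any comparison. Cpb1, which encodes the carboxypeptidase that removes basic residues and works beside carboxypeptidase A in pancreatic juice, varied widely between livers, from 11.9 to 166 in intensity. Its lowest, median and highest intensities were 17.7, 54.9 and 166 in GpatCD-CD, 35.3, 69.2 and 83.6 in GpatCD-HF, and 11.9, 37.0 and 84.6 in GpatHF-CD. In GpatHF-HF the 5 intensities were 37.2, 41.6, 34.4, 71.7 and 58.6. The 4 groups overlapped throughout, and both extremes were in females on chow. Cpb1 differed by 0.11 ± 0.26 for own diet averaged over the lines (95% confidence interval -0.43 to 0.64), so a rise or a fall of that size could not be told from 0. Without arrays 21, 22, 24 and 25 this was 0.32 ± 0.26 (adjusted p 0.652), and the chow-line difference went from -0.02 ± 0.35 to 0.34 ± 0.37, neither of them called by limma. Its within-group SD of 0.72 exceeded that of 99.4% of probe sets. GpatCD-CD alone held much of this scatter among its own 7 livers, with 127, 156 and 166 in arrays 21, 25 and 28 and 18.0 and 17.7 in arrays 29 and 30. Array 30, whose Cpb1 was the lowest of that group, had the highest Cpa1 of all 24 livers.

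Prss1, which encodes the trypsin precursor that activates the other zymogens, was the dimmest member. Its intensity lay between 11.6 and 25.6, and 48.3% of 1294 probe sets for odorant and vomeronasal receptors, genes of sensory neurons taken here to show how dim signal looks in liver, were dimmer still. Group medians were 19.9, 18.6, 18.6 and 18.6 in the order GpatCD-CD, GpatCD-HF, GpatHF-CD and GpatHF-HF, and all groups overlapped. Trypsin genes have near-identical copies in the rat, so this probe set could also detect related transcripts. Prss1 did not pass the filter, and fitted without it the own-diet difference was -0.04 ± 0.05.

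Ctrb1, which encodes the chymotrypsin precursor, lay between 44.0 and 71.97 in every liver. Its group medians were 53.8, 57.0, 55.1 and 53.1 in the same order. Its difference in the chow line was 0.15 ± 0.07, higher on the HFD, with a limma unadjusted p of 0.048 and an adjusted p of 0.560, and in the HFD line it was 0.00 ± 0.08. Cela1, which encodes an elastase, lay between 29.9 and 47.4, with group medians of 39.4, 38.6, 36.0 and 38.5 and an averaged own-diet difference of -0.03 ± 0.06. For both genes the groups overlapped.

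The genes of the fat-splitting enzymes were dim. Their within-group SDs were 0.15 (Cel) and 0.18 (Pnlip), beside a median of 0.18 over all probe sets. Cel, which encodes the bile salt-dependent carboxyl ester lipase, lay between 33.5 and 58.4, with group medians of 45.6, 41.8, 40.4 and 41.1. Its averaged own-diet difference was -0.07 ± 0.06. Pnlip, which encodes the main lipase of pancreatic juice, lay between 20.3 and 41.5, with group medians of 26.6, 28.2, 25.2 and 28.7. It did not pass the filter, and fitted without it the difference was 0.02 ± 0.07. The highest Pnlip values, 41.5 in arrays 25 and 26, belonged to chow-fed females of the chow line.

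Of the 4 other members tested, 0 were called by limma in any of the 7 comparisons. With 0.319% to 1.99% of all probe sets called for own diet, a count of 0 of 4 is near the background, and nothing is read from it. At an unadjusted p under 0.05 the count was 1 (Ctrb1, own diet in the chow line) and 0 in the other 6 comparisons, beside 8.8% of all probe sets for own diet in the chow line. The median averaged own-diet difference of these 4 was 0.02, beside -0.03 over all probe sets tested. For grandpaternal diet averaged over own diets, Cpb1 differed by -0.41 ± 0.26 (adjusted p 0.577), Cela1 by -0.10 ± 0.06 (0.529), Cel by -0.09 ± 0.06 (0.604) and Ctrb1 by -0.02 ± 0.05 (0.938). The values without the filter were -0.04 ± 0.07 for Pnlip and -0.02 ± 0.05 for Prss1.

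**Figure D2:**
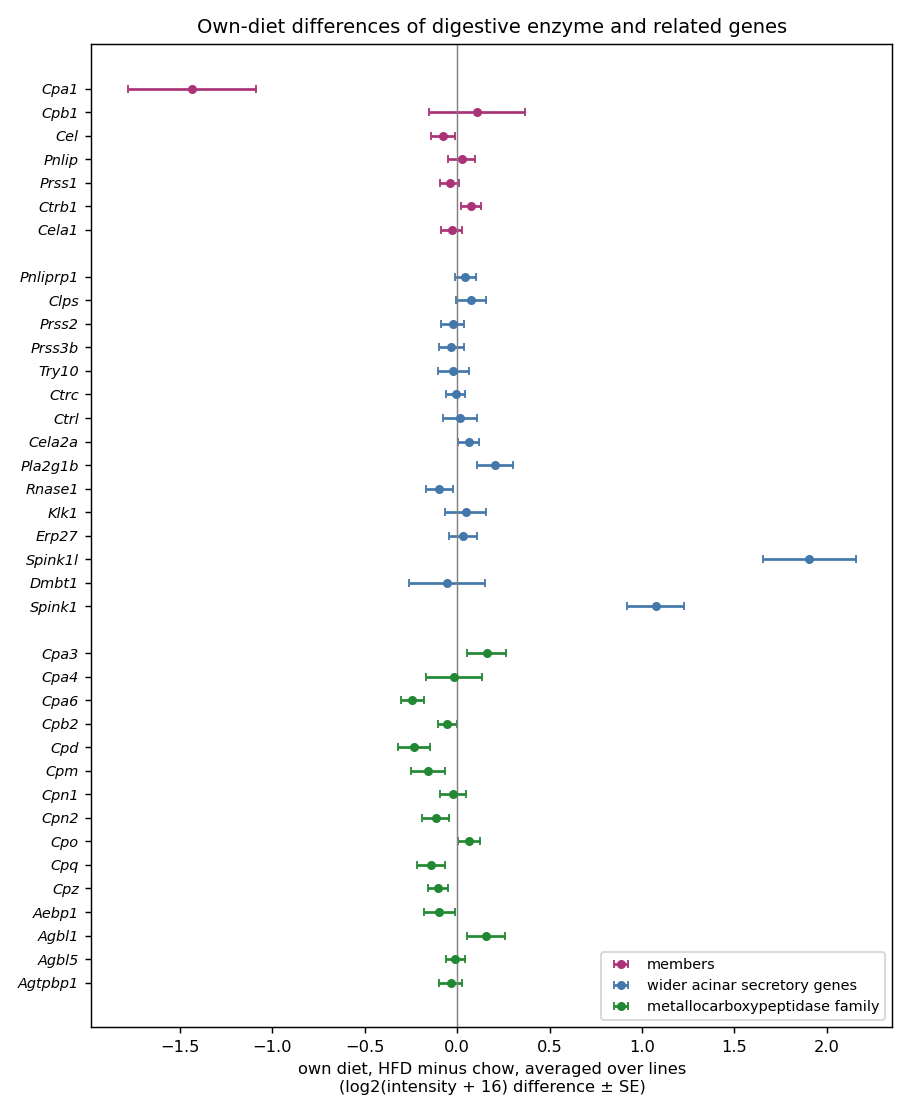
Own-diet differences (HFD minus chow, averaged over the lines, log2(intensity + 16) ± SE) for the 7 members, for the tested wider acinar genes with Spink1 added from the fit without the filter, and for the tested carboxypeptidase family. Cpa1 at -1.43 lies alone on the left, Spink1l at 1.91 and Spink1 at 1.07 lie on the right, and the rest fall between -0.24 and 0.20.

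The summed intensity of the 6 other members ranged from 180.1 to 375 over the 24 livers, with Cpb1 as its most variable part. It ran from 192.6 to 375 in GpatCD-CD, 212.9 to 294.5 in GpatCD-HF, 180.1 to 259.9 in GpatHF-CD and 205.9 to 245.6 in GpatHF-HF. The group medians of this sum were 282, 244, 219 and 229, while those of Cpa1 were 5078, 3213, 3157 and 1189. Both were highest in GpatCD-CD, but the sum was lowest in GpatHF-CD and Cpa1 was lowest in GpatHF-HF. Brightness depends on each probe set as well as on the transcript, so these sums are not compared with Cpa1 in level. In bulk liver, fewer cells of a type and less RNA per cell cannot be told apart.

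For none of the 6 other members did the correlation with Cpa1 over the 24 arrays pass a test. Pearson's r with Cpa1 was 0.24 for Cel, 0.13 for Prss1, 0.07 for Cpb1, -0.04 for Cela1, -0.27 for Pnlip and -0.27 for Ctrb1, and Spearman's rho was 0.21, 0.32, 0.10, 0.05, -0.36 and -0.20. By two-sided permutation tests (100000 resamples) the p for r ranged from 0.197 to 0.853 and that for rho from 0.084 to 0.804. Adjusted over the 6 relations, the smallest were 0.535 for r and 0.366 for rho. Arrays were shuffled without regard to group, so these p-values do not separate group differences from variation within groups. Without arrays 46 and 24, the 2 farthest from the Cpa1 median, r was 0.18 for Cpb1, 0.09 for Cel, 0.28 for Prss1, 0.11 for Cela1, -0.16 for Pnlip and -0.41 for Ctrb1. With each group's mean removed r was -0.00 for Cpb1 and -0.01 for Cel, and Cela1 gave -0.40. Without arrays 21, 22, 24 and 25, r was -0.10 for Cpb1 and 0.03 for Ctrb1. Among the 15686 tested probe sets other than that of Cpa1, the median r was 0.14 and the 95th percentile was 0.44. Ranked by r from the highest, Cel was 4948, Cpb1 9805, Cela1 12218 and Ctrb1 15027. The 6 other members were dim, with mean signals from 5.12 to 6.14 beside 11.37 for Cpa1, which limits what these correlations can show.

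**Figure D3:**
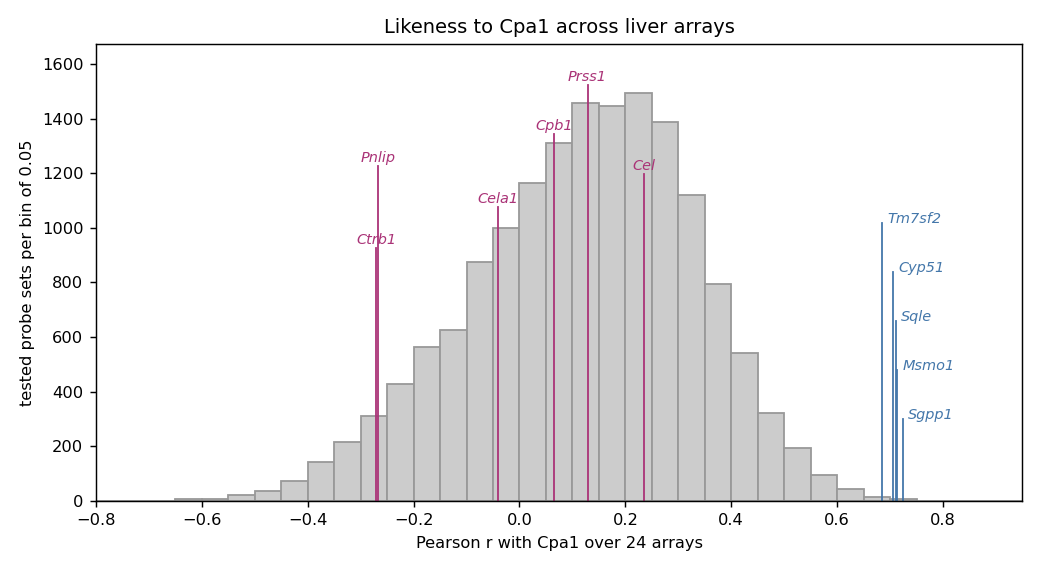
Histogram of Pearson's r with Cpa1 over 24 arrays for the 15686 other tested probe sets (bins of 0.05), with lines at the 6 other digestive enzyme genes and at the 5 named genes of highest r. The digestive enzyme genes lie between -0.27 and 0.24, inside the bulk of the histogram, and the 5 likest genes lie between 0.68 and 0.72 at its right edge.

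The named genes whose signal was most like that of Cpa1 were chosen with the 6 other members left out. Of those members, the 4 tested ranked no higher than 4948 of 15686. In order of r over all 24 arrays the likest named genes began with Sgpp1, which encodes a sphingosine-1-phosphate phosphatase (r = 0.72, rho = 0.69). After it came Msmo1 (0.71, 0.74), Sqle (0.71, 0.72), Cyp51 (0.71, 0.79) and Tm7sf2 (0.68, 0.65). The last 4 encode enzymes of cholesterol synthesis after squalene formation. They were chosen for their likeness, so these r values are a description over 24 arrays that share the diet groups, and no p is attached. Each was lower on the HFD, by -0.38 ± 0.08 for Sgpp1, -1.39 ± 0.18 for Msmo1, -2.20 ± 0.24 for Sqle, -1.13 ± 0.12 for Cyp51 and -0.77 ± 0.12 for Tm7sf2 (log2, averaged over the lines).

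Part of this likeness remained inside the groups. With the group means removed, r with Cpa1 was 0.61 for Cyp51, 0.58 for Sqle, 0.58 for Msmo1, 0.53 for Tm7sf2 and 0.43 for Sgpp1. The 95th percentile over all probe sets tested was 0.34. These 5 genes were picked on a pooled r that includes the scatter within groups, so lying above that percentile is no test. Without arrays 46 and 24, the pooled r was 0.68 for Cyp51, 0.67 for Sgpp1, 0.66 for Sqle, 0.64 for Msmo1 and 0.55 for Tm7sf2. Without arrays 21, 22, 24 and 25 the 5 values lay between 0.62 and 0.67. Ranked instead with group means removed, the 5 likest named genes were Cplx4, which encodes a complexin of synaptic vesicle release (0.65), Ost4, a subunit of the oligosaccharyltransferase (0.64), Rab18, a small GTPase found on lipid droplets (0.61), Cyp51 (0.61) and Fzd5, a Wnt receptor (0.61). Cplx4 leaned on single livers, with a pooled r of 0.63 that fell to 0.15 without array 46. The pooled r of Fzd5 was 0.38, and -0.00 without arrays 46 and 24. Of these 5, Cyp51 was also among the 5 likest over all arrays.

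**Figure D4:**
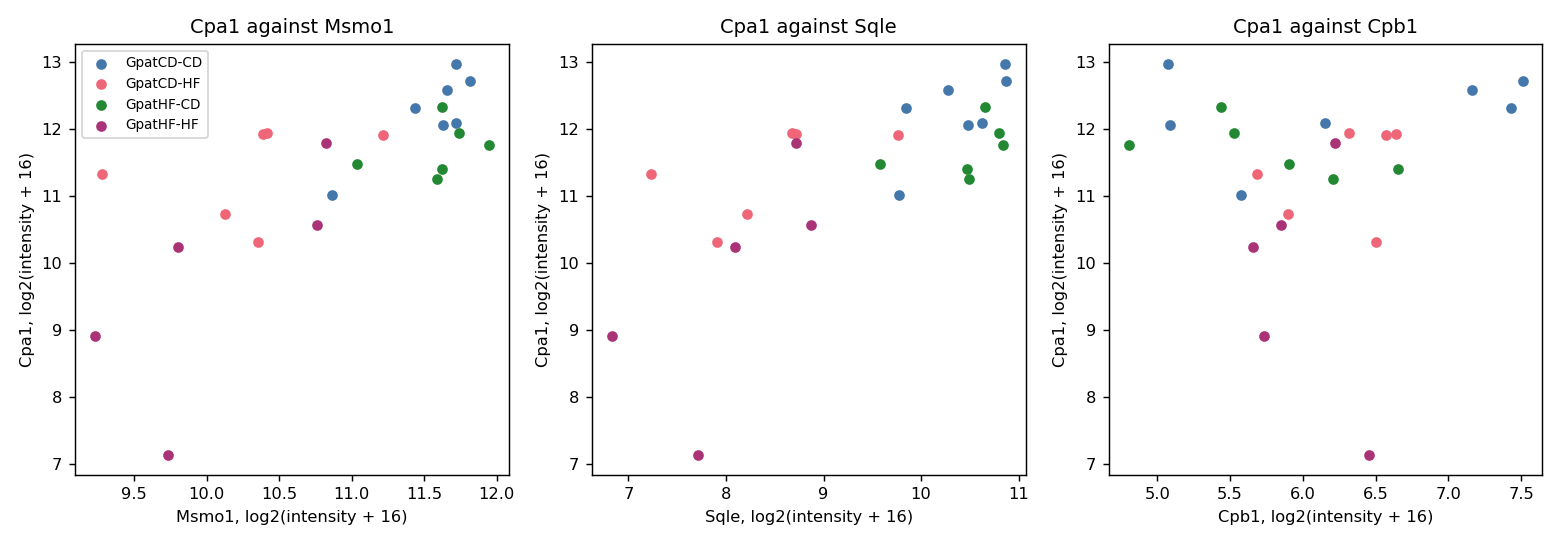
Cpa1 signal (vertical axis) against that of Msmo1, Sqle and Cpb1 (horizontal axes), all as log2(intensity + 16), 1 point per array, coloured by group. Cpa1 rises with Msmo1 (r = 0.71) and Sqle (r = 0.71), with array 46 of GpatHF-HF at the bottom of each panel at 7.13, and is scattered against Cpb1 (r = 0.07).

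The promoters of the digestive enzyme genes and of 4 of the 5 likest genes (Sqle had no single entry) were searched for TCACNCCAC, a core of the sterol response element bound by SREBP factors. It was absent from the 250 upstream bases of all 7 digestive enzyme genes and from those of Msmo1, Cyp51, Tm7sf2 and Sgpp1, on both strands. It occurred in 0.974% of the 33469 promoters. With so rare a match, absence from so few promoters was likely in advance, and nothing is read from it.

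In a wider list of acinar secretory genes, the 1 call among genes that passed the filter was Spink1l. Of 27 such genes on the array, 14 passed the filter. For own diet averaged over the lines 1 rose and 0 fell, beside 1.99% of all probe sets called. The median was 0.02 beside -0.03 over all probe sets tested. Limma's unadjusted p was under 0.05 for 2, beside 13.3% of all probe sets. Among the tested genes other than Spink1l, the largest differences were those of Pla2g1b and Rnase1. Pla2g1b, a pancreatic phospholipase A2, differed by 0.20 ± 0.10 (limma adjusted p 0.370), and Rnase1, the pancreatic ribonuclease, by -0.10 ± 0.07. The colipase gene Clps differed by 0.08 ± 0.08, the trypsinogen gene Prss2 by -0.02 ± 0.06, the chymotrypsin C gene Ctrc by -0.01 ± 0.05 and the elastase gene Cela2a by 0.06 ± 0.06. Pnliprp1, Prss3b, Try10, Ctrl, Klk1, Erp27 and Dmbt1 lay between -0.06 and 0.05. The genes that did not pass the filter were Pnliprp2, Cela3b, Sycn, Zg16, Gp2, Cuzd1, Serpini2, Reg1a, Reg3a, Reg3b, Reg3g, Aqp12a and Spink1. The zymogen granule proteins among them, Sycn, Zg16, Gp2 and Cuzd1, had median intensities of 27.4, 12.9, 22.5 and 23.0.

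Spink1l, a paralogue of the pancreatic secretory trypsin inhibitor gene Spink1, moved opposite to Cpa1. Its lowest, median and highest intensities were 27.3, 49.6 and 144 in GpatCD-CD and 153, 255 and 485 in GpatCD-HF. In GpatHF-CD they were 22.1, 63.8 and 103. The 5 GpatHF-HF livers gave 253, 609, 113, 203 and 239. Within each line the HFD livers all lay above the chow livers. The difference was 1.97 ± 0.34 in the chow line (limma adjusted p 0.00341), 1.84 ± 0.37 in the HFD line (0.0147) and 1.91 ± 0.25 averaged over the lines (3.12e-05), or 3.75-fold higher.

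Spink1 itself was dimmer and did not pass the filter. Its median intensity was 11.1 in GpatCD-CD, 44.9 in GpatCD-HF, 16.3 in GpatHF-CD and 61.6 in GpatHF-HF. Fitted without the filter, it rose by 1.07 ± 0.15 (limma adjusted p 0.0001117), and it was the second of 2 genes of the list called in that fit. Whether the Spink1 and Spink1l probe sets detect each other's transcripts was not tested. With both left out, the summed intensity of the remaining 25 acinar genes had group medians of 1271, 1232, 1177 and 1201 in the order GpatCD-CD, GpatCD-HF, GpatHF-CD and GpatHF-HF.

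Transcription factors and receptors of acinar cells were not called. Of 10, 9 were tested, 0 rose and 0 fell by limma (unadjusted p under 0.05 for 1, Bhlha15, the acinar factor MIST1, at -0.20 ± 0.07), with a median of -0.03. The brightest, all of which liver also expresses, were Xbp1 (-0.07 ± 0.08), Onecut1 (0.01 ± 0.14) and Nr5a2 (0.01 ± 0.05). Of 9 islet genes, 5 were tested and 0 were called (0 at an unadjusted p under 0.05), with a median of -0.02. Summed islet intensities had group medians of 485, 488, 461 and 469 in the same order.

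The brightest relatives of Cpa1 in liver differed little between diets. Of 21 genes of the metallocarboxypeptidase family, 15 were tested. For own diet averaged over the lines 0 rose and 1 fell, beside 1.99% of all probe sets called. Of the 15, 12 lay below 0 and 3 above, with a median of -0.05 beside -0.03 over all probe sets tested. Limma's unadjusted p was under 0.05 for 2 of them, beside 13.3% of all probe sets. Cpa6, which encodes an extracellular carboxypeptidase, fell by 0.24 on the log2 scale (SE 0.06, limma adjusted p 0.0393), and was not called in the fit without the filter nor without arrays 21, 22, 24 and 25. On leaving out 1 array, that call held only without array 21, 22, 27, 28, 30, 32, 35, 38, 39, 44 or 47. The 3 brightest were Cpb2, the thrombin-activatable fibrinolysis inhibitor, at -0.05 ± 0.05, Cpn1, the catalytic subunit of carboxypeptidase N, at -0.02 ± 0.07, and Cpn2, its regulatory subunit, at -0.12 ± 0.08. Cpn1 medians were 3172, 3131, 3148 and 3066 in the 4 groups, and the groups overlapped. The carboxypeptidase inhibitor genes Lxn and Rarres1 differed by 0.09 ± 0.07 and -0.11 ± 0.09, with 0 of 2 called (0 at an unadjusted p under 0.05).

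On one side of Cpa1, RefSeq lists Cep41, Mest, Copg2, Tsga13 and Klf14 in that order. Of 10 neighbouring genes with a single-gene probe set, 7 were tested and 0 were called for own diet averaged over the lines (limma; 0 at an unadjusted p under 0.05), with a median of -0.02. Cpa4, the next carboxypeptidase gene but one, differed by -0.02 ± 0.15. Cep41 differed by -0.00 ± 0.06, the coatomer gene Copg2 by 0.03 ± 0.08 (0.32 ± 0.11 in the chow line and -0.26 ± 0.12 in the HFD line, limma adjusted p 0.340 and 0.294), Klf14 by -0.04 ± 0.06, Tmem209 by 0.01 ± 0.08, Ube2h by -0.07 ± 0.08 and Zc3hc1 by -0.06 ± 0.08. In the HFD line all 7 lay below 0, with a median of -0.14 beside -0.09 over all probe sets tested, and in the chow line 6 of 7 lay above 0 (median 0.05 beside 0.01). For the interaction all 7 lay below 0 (-0.14 beside -0.10), with 0 called and 1 at an unadjusted p under 0.05. Cpa5, Tsga13 and Ssmem1 did not pass the filter, and Mest was not analysed here.

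Other gene groups were set beside Cpa1 because their cells or products could move with it. Of 11 plasma protease inhibitor genes, 0 were called (0 at an unadjusted p under 0.05), and the brightest, Ambp, differed by 0.08 ± 0.04, Itih4 by 0.06 ± 0.05 and Serpina3n by 0.03 ± 0.05. Of 9 liver lipase and esterase genes tested, 0 were called (3 at an unadjusted p under 0.05, beside 13.3% of all probe sets), with Lipc at 0.07 ± 0.05, Ces1c at -0.29 ± 0.08 and Lipa at -0.03 ± 0.08. Hepatocyte markers gave 0 calls among 11 (2 at an unadjusted p under 0.05) and a median of 0.04. By line, all 11 were above 0 in the chow line (median 0.14 beside 0.01 over all probe sets tested). Of these, 5 had an unadjusted p under 0.05, beside 8.8% of all probe sets. In the HFD line all 11 were below 0 (-0.06 beside -0.09), with 1 at an unadjusted p under 0.05, beside 15.8%. For the interaction all 11 were below 0 (-0.20 beside -0.10), with 6 at an unadjusted p under 0.05, beside 9.71%. In each of these comparisons 0 were called. Mast cell markers, including the carboxypeptidase gene Cpa3 at 0.16 ± 0.11, gave 0 calls among 4 tested (1 at an unadjusted p under 0.05).

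Kupffer cell markers were lower on the HFD, as Cpa1 was. Of 6 tested, 3 fell and 0 rose, beside 1.99% of all probe sets called. All 6 lay below 0, with a median of -0.52. Limma's unadjusted p was under 0.05 for all 6, beside 13.3% of all probe sets. Its adjusted p was 6.93e-05 for Marco (-1.16 ± 0.16), 0.00731 for Cd5l (-0.70 ± 0.14) and 0.0393 for Vsig4 (-0.55 ± 0.14). Their summed intensity ran from 2758 to 5144 in GpatCD-CD, 1493 to 2777 in GpatCD-HF, 2381 to 4287 in GpatHF-CD and 2042 to 3401 in GpatHF-HF. On leaving out 1 array, the count that fell ran from 2 (without array 25, among others) to 5 (without array 47), and it was 2 without arrays 21, 22, 24 and 25. With the dimmest 50% left out it was also 2, but Marco (mean signal 6.50) was among those left out and was not tested there. The part of these markers in the Cpa1 difference was not tested. Of 6 intestinal epithelium markers tested, 3 lay above 0 and 3 below (median 0.00). Fabp2, a fatty acid-binding protein gene, rose by 0.98 ± 0.19 (limma adjusted p 0.00441). Of 5 bile duct markers tested, 3 lay above 0 and 2 below (median 0.03). Epcam, an epithelial adhesion gene, fell by 0.55 on the log2 scale (limma adjusted p 0.0033). With the dimmest 50% left out, 0 of the bile duct list were called, but Epcam (mean signal 6.38) was among those left out and was not tested there. Of 8 fat tissue markers, 5 lay above 0 and 3 below (median 0.05), with Lipe at -0.31 ± 0.09. Fabp4 rose by 0.62 ± 0.16 (limma adjusted p 0.0412), and on leaving out 1 array that call held only without array 21, 22, 30, 34, 39, 45 or 46. The intestinal, bile duct and fat tissue lists thus had 1 call each, beside 1.99% of all probe sets. For grandpaternal diet averaged over own diets, 0 genes of any of the 14 lists were called by limma, with 0 to 3 per list at an unadjusted p under 0.05.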

How the data were processed

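Liver RNA from 24 rats was measured on 1 Affymetrix whole-transcript array each. The deposited values are linear intensity per probe set, for which the submitters' processing notes name PLIER and Affymetrix Expression Console. The normalization is not given in the sources used here, nor are tool versions or a build. Precision is limited by how many arrays each group has.

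From the intensity, log2(value + 16) was computed without further normalization. The dimmest 25% of probe sets by mean (below 5.72) were left out. The remaining 15687 were fitted with 4 group means in limma 3.58.1 (R 4.3.3; lmFit, eBayes with an intensity trend), with two-sided p-values adjusted by Benjamini-Hochberg over all of them. Members that did not pass the filter were read from a fit on all 20917 probe sets. The tests were checked on simulated data. Platform annotation symbols were updated through Entrez identifiers with a RefSeq table (GRCr8); 18197 probe sets had 1 symbol, 960 several and 1760 none. All 7 members had a RefSeq promoter entry. The platform's build is not named, so coordinates are those of the RefSeq promoters only.

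The genes named were the 7 members and all genes of the wider acinar and neighbour lists. Of each other list, up to 3 of the brightest genes were named. Also named were the 5 genes with the highest r with Cpa1 over all arrays, and the 5 highest after removing group means. Those genes had 1 symbol not starting with LOC or RGD, and the 7 members were left out of that choice. Cpa6, Bhlha15, Cpa3, the fat tissue markers and the called marker genes were named after their values were seen. The members and lists were chosen with earlier results of these data known. Groups follow the sample titles. Alternatives were quantile normalization, median centring, no filter, a 50% filter, offsets of 1 and 50, eBayes without trend or robust, array weights, fits on just the groups of a comparison, arrays 21, 22, 24 and 25 omitted or as a block, and leaving out each array singly.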

Additional observations from a re-analysis of the deposited data

Results flagged for a closer look

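Among the 7 digestive enzyme genes in the 4 groups, 1 of 28 sets of values held a liver far from the rest. Prss1, the trypsin gene with the dimmest signal, had an intensity of 11.64 in array 33 of GpatCD-HF, while the other 5 livers of that group lay between 17.64 and 21.17. The gap to the nearest liver was 0.663 of the group's range, above Dixon's 95% critical value of 0.625 for 6 samples. Chance flags about 1 in 20 such groups. The same liver had a Cpa1 intensity of 2569.5, inside its group's range.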

How the results depend on the processing

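No paired analysis was possible because no replicate number is shared between groups. Under every alternative run, each of the 7 Cpa1 differences stayed below 0 and 0 of the other members tested were called in any comparison. Leaving out 1 array at a time, the Cpa1 difference lay between -1.10 and -0.68 for own diet in the chow line, between -2.49 and -1.32 in the HFD line and between -1.69 and -1.11 for their average. Under the other alternatives these ranges were -0.99 to -0.61, -2.24 to -1.77 and -1.46 to -1.19. For grandpaternal diet averaged over own diets the ranges were -1.35 to -0.77 and -1.16 to -1.03, and arrays 46 and 47 set both ends of the leave-one-out range. For the interaction they were -1.59 to -0.43 and -1.59 to -0.84.

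The number of probe sets called depended more on the setting. For own diet in the chow line it was 50, but 89 with quantile normalization, 79 with median centring and 95 with array weights. In the HFD line it was 118, but 186 with array weights, 77 without arrays 21, 22, 24 and 25, and 56 to 148 without 1 array (under 118 by more than 1.5 times without array 24, 37, 42, 44 or 45). For the average it was 312, but 581 with array weights and 214 to 470 without 1 array (470 without array 21). For grandpaternal diet averaged over own diets it was 0, but 54 with array weights and 0 to 7 without 1 array (7 without array 34). For the interaction it was 0, but 0 to 57 without 1 array. The cause was not tested. Quantile normalization moved the median difference over all probe sets for grandpaternal diet on the HFD from -0.10 to -0.00. The number of arrays and, for Prss1 and Pnlip, dim signal limit what these data can show.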
